A study of Homo sapiens with 18 samples.

Results

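The starvation response of HAP1 cells labelled RB1CC1KO/FIP200KO was set against that of HAP1 cells labelled ATG7KO. For every gene the response of a line was the log2 fold change between cells starved in Earle's balanced salt solution (EBSS) and cells in full medium. The difference between the responses was the RB1CC1KO response minus the ATG7KO response, so that a positive value means a response that was higher in RB1CC1KO. It used 12 of the 18 RNA-seq libraries of the series, chosen by their titles, with 3 libraries in each of 4 groups. The groups were RB1CC1KO after 6 h in EBSS, RB1CC1KO in full medium, ATG7KO after 6 h in EBSS and ATG7KO in full medium. HAP1 is a near-haploid human line derived from a chronic myeloid leukaemia. Full medium was IMDM with 10% heat-inactivated fetal calf serum and antibiotics, while EBSS holds salts and glucose but neither amino acids nor serum. No other allele or agent is given for any of these groups. Each genotype was 1 line, so that a knockout and any other property of its line cannot be told apart. The p-values set the difference between the responses against the spread between the 3 independent biological replicates of a group. That spread was estimated from all 18 libraries, including those of a line labelled WT that enter neither response.

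Autophagy delivers cytoplasm to the lysosome for breakdown and supplies amino acids when nutrients are withdrawn. RB1CC1 (FIP200) holds the ULK1 kinase complex together, which acts at the first step of autophagosome formation, and ATG7 is the E1-like enzyme that acts later and couples ATG8 proteins to the growing membrane. Immediate early genes such as FOS and EGR1 are switched on within minutes of a stimulus, without new protein synthesis, largely through the RAS-RAF-MEK-ERK kinase cascade and serum response factor. The Sprouty, SPRED and dual-specificity phosphatase genes are induced by the same cascade and then restrain it. FOS, EGR1 and the Sprouty gene SPRY4 were given with the comparison, which was chosen with earlier results of these data known. They were described first for that reason.

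Of 15179 genes tested, 498 (3.28%) had responses that differed between the lines, which here means that edgeR's quasi-likelihood test gave a p under 0.05 after Benjamini-Hochberg adjustment. Such genes are described as called. The response was higher in RB1CC1KO for 149 genes (0.982%) and lower in RB1CC1KO for 349 genes (2.3%). The change was at least 2-fold for 51 of the higher and 39 of the lower genes, and the median difference was 0.659 among the higher and -0.589 among the lower calls, against -0.03 over all genes. Immediate early genes and ERK-induced genes stood among the higher calls, and the lower calls held homeobox, zinc finger and 1-exon genes. The homeobox and zinc finger groups were picked by symbol after the called genes had been seen. All comparisons are of bulk RNA, in which fewer cells that express a gene and less RNA per cell cannot be told apart.

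The balance of higher and lower calls depended on the libraries and on the genes fitted. In a fit of the 12 knockout libraries alone 193 genes were higher and 220 lower, so that the share of higher calls was 46.7% in place of 29.9%, and the median over all genes was 0.02 in place of -0.03. Higher and lower calls numbered 198 and 155 without ATG7KO EBSS replicate 1, and 143 and 152 without ATG7KO EBSS replicate 2. They numbered 168 and 181 without RB1CC1KO full medium replicate 2, and 155 and 182 without RB1CC1KO full medium replicate 3. Without RB1CC1KO EBSS replicate 1 they numbered 161 and 148. The excess of lower calls was thus reversed without ATG7KO EBSS replicate 1 and without RB1CC1KO EBSS replicate 1. The total was 295 without ATG7KO EBSS replicate 2 and 309 without RB1CC1KO EBSS replicate 1. The number of higher calls stayed between 121 and 198 in every setting tried, and none of the 498 genes changed sign in a setting that tested it (496 were tested with at least 1 CPM in 3 libraries, 497 in the fit of 12 libraries and all 498 in the others). Over the 9 ways to pair an EBSS library with a full-medium library of a line, the RB1CC1KO responses lay wholly above the ATG7KO responses for 144 of the 149 higher genes, against 2.69% of all genes. They lay wholly below for 332 of the 349 lower genes, against 5.38% of all genes. Both counts were read from the libraries that gave the calls, so they restate the calls and add no support to them.

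Both lines responded strongly. EBSS changed 9886 genes (65.1%) in RB1CC1KO and 9554 genes (62.9%) in ATG7KO, 3261 and 2911 of them at least 2-fold. The 2 responses had a Pearson correlation of 0.895 across genes, although genes are not independent of each other, and their SD over genes was 1.11 in RB1CC1KO and 1.04 in ATG7KO. Most differences were of size and not of direction. Of the 149 higher genes 85 rose in both lines, 26 rose in RB1CC1KO and were not called in ATG7KO, 12 were not called in RB1CC1KO and fell in ATG7KO, 16 fell in both, and 10 rose in RB1CC1KO and fell in ATG7KO. Of the 349 lower genes 166 fell in both lines, 58 fell in RB1CC1KO and were not called in ATG7KO, 52 were not called in RB1CC1KO and rose in ATG7KO, 55 rose in both, and 18 fell in RB1CC1KO and rose in ATG7KO.

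**Figure D1:**
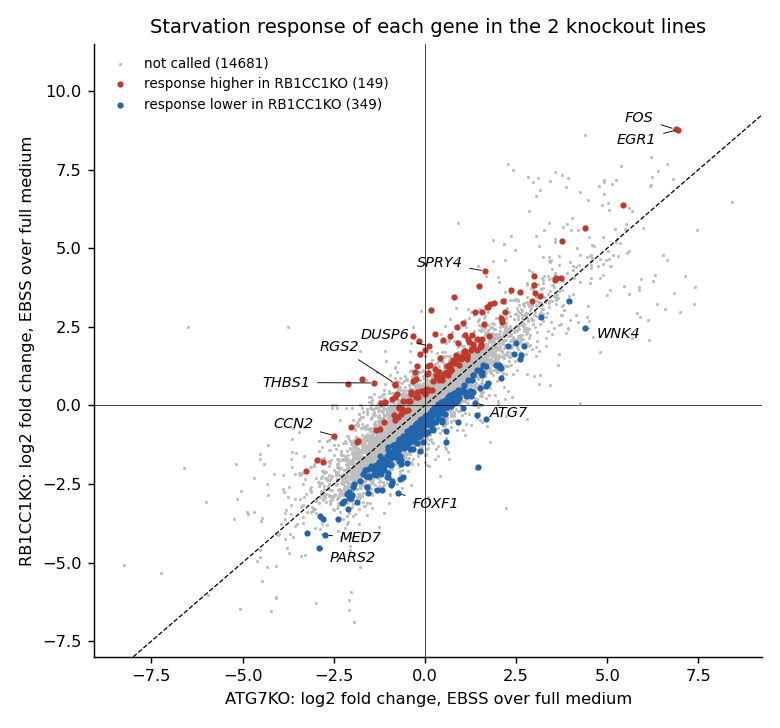
Each point is 1 of 15179 genes, with its response to EBSS in RB1CC1KO on the vertical axis and in ATG7KO on the horizontal axis (log2 fold change, EBSS over full medium), and the dashed line marks equal responses. The 149 red genes responded higher and the 349 blue genes lower in RB1CC1KO, and FOS and EGR1 lie at the far end of the rising genes, above the line.

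Depth ranged from 4892072 reads in genes (ATG7KO EBSS replicate 3) to 26005942 (RB1CC1KO EBSS replicate 2), with the other 10 libraries between 14733663 and 18332940. In the shallowest library 17418 genes had a read, and in the other 11 between 19611 and 22065. Mitochondrial reads made up 1.41 to 2.20% of reads in starved RB1CC1KO libraries, 3.25 to 3.97% in fed RB1CC1KO libraries, 1.52 to 2.14% in starved ATG7KO libraries and 3.24 to 3.59% in fed ATG7KO libraries, so that their fall with EBSS was alike in the lines. Replicate pairs of all groups differed by more than sampling noise (chi-square per degree of freedom from 2.33 to 11.2), most for the pairs with RB1CC1KO EBSS replicate 2. Where replicates differ, this measure grows with depth. The highest values were of pairs with the deepest library and the lowest of a pair with the shallowest, so it does not rank the libraries.

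The targeted genes were read first. ATG7 stood at 17.9, 16.6 and 17.1 CPM (counts per 1000000 reads, TMM-scaled) in starved RB1CC1KO libraries, at 16.7, 15.9 and 16.0 CPM in fed RB1CC1KO libraries, at 10.98, 10.19 and 9.97 CPM in starved ATG7KO libraries and at 4.51, 3.68 and 3.87 CPM in fed ATG7KO libraries. The libraries of ATG7KO were the low ones in both media, and the gap was smaller after EBSS. ATG7 was thereby itself one of the genes whose response differed, by -1.29 ± 0.17 (log2 ± SE, adjusted p = 7.63e-06), with a response of 0.09 in RB1CC1KO, 1.38 in ATG7KO and 0.05 in WT. A gene on the other strand overlaps ATG7, and the strand setting of the counting is not given in the sources used here. RB1CC1 averaged 264 ± 14.8 CPM (SD, n = 3) in starved and 157 ± 12.7 CPM in fed RB1CC1KO libraries, against 219 ± 15.6 CPM in starved and 106.5 ± 2.455 CPM in fed ATG7KO libraries. The RNA was not reduced in RB1CC1KO, so that it gives no check of that label. Its response did not pass the test of the difference (-0.29 ± 0.10, adjusted p = 0.109).

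Of 22 measured immediate early transcription factors edgeR and DESeq2 each called 10 higher in RB1CC1KO (45.5%, against 0.982% of all genes) and 0 lower, while 14 were higher and 0 lower at an unadjusted p under 0.05. The median difference was 0.752, and 21 of 22 values were above 0. The median response was 3.32 in RB1CC1KO, 2.74 in ATG7KO and 2.95 in the WT line. EGR1, a zinc finger factor, stood at 1936, 1954 and 1992 CPM in starved RB1CC1KO libraries, at 4.60, 4.67 and 4.13 CPM in fed RB1CC1KO libraries, at 1614, 1329 and 1383 CPM in starved ATG7KO libraries and at 11.3, 13.0 and 10.7 CPM in fed ATG7KO libraries. The lines did not overlap in either medium, RB1CC1KO being the higher after EBSS and the lower in full medium. EGR1 thus rose 438-fold in RB1CC1KO and 123-fold in ATG7KO, a difference of 1.83 ± 0.16 (adjusted p = 2.63e-08), and its response in WT was 7.89 on the log2 scale, between 8.77 in RB1CC1KO and 6.95 in ATG7KO.

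FOS, a subunit of the AP-1 factor, stood at 486, 472 and 473 CPM in starved RB1CC1KO libraries and at 1.18, 0.901 and 1.15 CPM in fed ones, against 249.6, 242 and 256 CPM in starved ATG7KO libraries and 2.23, 2.70 and 1.31 CPM in fed ones. The starved libraries of RB1CC1KO were nearly a factor 2 above those of ATG7KO, and the fed ones lay below them. The difference was 1.91 ± 0.32 (adjusted p = 0.000809), with a WT response of 6.77 that was close to 6.88 in ATG7KO and below 8.78 in RB1CC1KO. The fed levels rest on 55 reads over the 3 RB1CC1KO libraries and 111 over the 3 ATG7KO libraries.

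SPRY4, a Sprouty inhibitor of receptor tyrosine kinase signalling, was a low gene. It stood at 9.43, 6.56 and 8.51 CPM in starved RB1CC1KO libraries and at 0.531, 0.394 and 0.303 CPM in fed ones, against 4.91, 4.55 and 5.09 CPM in starved ATG7KO libraries and 1.34, 1.57 and 1.68 CPM in fed ones. Every starved RB1CC1KO library was above every starved ATG7KO library, and every fed one below every fed one. The difference was 2.63 ± 0.36 (adjusted p = 1.5e-05), but the fed RB1CC1KO level rests on 21 reads in all. The WT response was 4.93, against 4.28 in RB1CC1KO and 1.65 in ATG7KO, and fed WT libraries stood at 0.365, 0.198 and 0.157 CPM, so that ATG7KO was the line with the high fed level.

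The promoters of these genes are shown because the 3 genes mark the response described first and are known targets of signal-activated factors. Each sequence is the 140 bases before the RefSeq transcription start (GRCh38.p14), 5′ to 3′ on the gene's own strand. Capitals mark CArG boxes, the motif that serum response factor binds, and TGACG on either strand (CGTCA where it lies on the opposite one), the core of the cAMP response element bound by the CREB and ATF families.
EGR1: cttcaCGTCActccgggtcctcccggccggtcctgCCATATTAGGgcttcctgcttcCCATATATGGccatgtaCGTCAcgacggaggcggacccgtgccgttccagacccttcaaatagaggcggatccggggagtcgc
FOS: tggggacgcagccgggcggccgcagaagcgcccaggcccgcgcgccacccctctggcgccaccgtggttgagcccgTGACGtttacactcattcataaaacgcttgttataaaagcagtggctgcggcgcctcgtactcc
SPRY4: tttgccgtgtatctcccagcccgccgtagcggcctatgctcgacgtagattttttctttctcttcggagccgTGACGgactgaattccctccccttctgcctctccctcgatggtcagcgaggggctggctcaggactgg
The EGR1 window is chr5:138465339-138465478 on the plus strand, the FOS window chr14:75278688-75278827 on the plus strand and the SPRY4 window chr5:142324248-142324387 on the minus strand. EGR1 held CArG boxes 105 to 96 and 83 to 74 bases before the start and TGACG on the opposite strand 135 to 131 and 66 to 62 bases before it. FOS held TGACG 64 to 60 bases and SPRY4 68 to 64 bases before the start. Bases more than 250 before a start were not searched, so a gene without a marked CArG box may hold one further upstream. Over the 250 bases before the start, TGACG on either strand was found in 48.7% of the 113 called higher genes with a promoter in the table, in 30.4% of the 280 called lower genes and in 30.1% of all 11025 tested genes with one. The full TGACGTCA, which contains TGACG, was found in 7.08%, 3.21% and 2.91% of the same sets, and the CArG box in 3.54%, 2.5% and 0.998%. CCGGAA, an ETS factor core, was found in 18.6%, 26.4% and 24.5%, and TGANTCA, the AP-1 element, in 3.54%, 2.5% and 3.61%. A match of letters is no measurement of binding.

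The other called transcription factors of this class were KLF10 (1.18 ± 0.12, adjusted p = 6.14e-08), MAFF (1.13 ± 0.21), EGR3 (1.47), FOSL2 (0.88), FOSL1 (0.79), NR4A1 (0.72), JUNB (0.59) and KLF6 (0.38). KLF10, a TGF-beta-inducible factor, stood at 192, 172 and 179 CPM in starved and 18.9, 17.9 and 17.4 CPM in fed RB1CC1KO libraries, against 109.9, 86.0 and 85.5 CPM in starved and 19.9, 21.4 and 23.0 CPM in fed ATG7KO libraries. The lines did not overlap in either medium, and the gap was wider in the starved libraries. Among the 12 members that were not called, NR4A3 was at 1.22 (adjusted p = 0.098), FOSB at 1.37 (adjusted p = 0.3), ATF3 at 0.21, JUN at 0.12, MYC at 0.05 and SRF itself at 0.05. The class did not shift by a like amount, and MYC, JUN and SRF lay near the median of all genes. Calls were lost without any of 9 libraries for EGR3 (adjusted p up to 0.192; 1.52 and adjusted p = 0.0882 in the fit of the 12 knockout libraries alone), without any of 4 for JUNB (up to 0.0861) and without ATG7KO EBSS replicate 2 for FOSL2 (0.76, adjusted p = 0.0609).

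Of 24 other immediate early genes 11 were called higher (45.8%, against 0.982% of all genes) and 1 lower (4.17%, against 2.3%), with a median difference of 0.592. CCN1, which encodes a secreted matrix protein that binds integrins, had the smallest p of all the genes in these lists. It stood at 63.4, 65.9 and 66.9 CPM in starved RB1CC1KO libraries and at 98.5, 112 and 107 CPM in fed ones, against 42.8, 46.5 and 40.1 CPM in starved ATG7KO libraries and 179, 176 and 178 CPM in fed ones. It fell in both lines, by 0.70 on the log2 scale in RB1CC1KO and by 2.03 in ATG7KO, a difference of 1.33 ± 0.09 (adjusted p = 3.36e-12). The other leading members were RGS2, which speeds GTP hydrolysis by G proteins (1.51 ± 0.17), the pleckstrin homology gene PHLDA1 (1.11 ± 0.15) and the pseudokinase TRIB1 (1.09 ± 0.17). ARC (1.44), the mRNA-destabilising ZFP36 (1.01), CSRNP1 (0.98), IER3 (0.93), IER2 (0.85), the EGR corepressor NAB2 (0.64) and the survival gene MCL1 (0.42) were called as well. BTG2, an antiproliferative gene and p53 target, was the 1 lower member (-0.64 ± 0.11, adjusted p = 0.000571). Of the 12 uncalled members GADD45B was at 0.68 (adjusted p = 0.092). Without ATG7KO full medium replicate 3 the calls of CSRNP1 (0.87, adjusted p = 0.0504) and IER3 were lost, and that of IER3 also without RB1CC1KO full medium replicate 3 (adjusted p from 0.0524 to 0.107).

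Feedback inhibitors of ERK followed. Of 21 measured members edgeR called 7 higher (33.3%, against 0.982% of all genes) and 0 lower, and DESeq2 8 and 0. At an unadjusted p under 0.05 there were 10 and 1, and the median difference was 0.289. DUSP6, the cytoplasmic phosphatase of ERK, stood at 4.56, 2.71 and 3.31 CPM in starved RB1CC1KO libraries and at 0.472, 1.18 and 1.15 CPM in fed ones, against 2.584, 2.445 and 2.970 CPM in starved ATG7KO libraries and 1.78, 2.32 and 3.12 CPM in fed ones. The starved levels of the lines overlapped and the fed levels did not, RB1CC1KO being the lower. The difference of 1.77 ± 0.38 (adjusted p = 0.00439) set a response of 1.89 in RB1CC1KO against 0.12 in ATG7KO, and the WT response was 2.399. DUSP4, a nuclear phosphatase of the same family (1.57 ± 0.30), SPRY2 (0.94 ± 0.17), SPRED2 (0.65 ± 0.12), DUSP5 (1.09) and DUSP16 (0.34) were the other calls besides SPRY4. The uncalled members included DUSP1 (0.22, adjusted p = 0.53), SPRY1 (0.20, adjusted p = 0.84) and ERRFI1 (0.59), the inhibitor of the EGF receptor, with the smallest p among those that did not pass; DESeq2 called it. The call of DUSP5 was lost without any of 6 libraries (adjusted p up to 0.149) and that of DUSP16 without any of 4 (up to 0.176).

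Of 23 measured factors and effectors that ERK is known to induce, edgeR called 6 higher and 0 lower, and DESeq2 5 and 0. At an unadjusted p under 0.05 there were 8 and 1, and the median difference was 0.266. The 6 calls of edgeR were 26.1% of the list, against 0.982% of all genes. The ETS factors ETV5 (1.64 ± 0.31, adjusted p = 0.00118) and ETV1 (1.46 ± 0.31) were among them, with the ephrin receptors EPHA4 (0.55 ± 0.09) and EPHA2 (0.46 ± 0.11), PHLDA2 (2.22) and the cytokine receptor TNFRSF12A (1.15). ETV5 averaged 8.12 ± 2.56 CPM in starved and 1.43 ± 0.10 CPM in fed RB1CC1KO libraries, against 7.21 ± 1.82 CPM in starved and 4.10 ± 0.28 CPM in fed ATG7KO libraries (SD, n = 3 each). Its starved levels overlapped between the lines and its fed levels did not. PHLDA2 lost its call without any of 5 libraries (adjusted p up to 0.105) and TNFRSF12A without any of 8 (up to 0.134).

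Upstream of these genes, of 37 measured growth factor receptors and members of the RAS-RAF-MEK-ERK cascade, edgeR called 0 higher and 1 lower (2.7%, near the 2.3% of all genes) and DESeq2 1 and 1, with 4 and 6 at an unadjusted p under 0.05 and a median of -0.024. The lower call was the receptor gene ERBB2 (-0.68 ± 0.16, adjusted p = 0.00831), which stood at 3.91, 3.98 and 6.12 CPM in starved and 10.3, 8.95 and 9.77 CPM in fed RB1CC1KO libraries, against 56.7, 56.4 and 51.8 CPM in starved and 75.1, 74.2 and 69.6 CPM in fed ATG7KO libraries. Its call was lost without ATG7KO EBSS replicate 2, RB1CC1KO EBSS replicate 1 or RB1CC1KO EBSS replicate 2 (adjusted p from 0.0531 to 0.105). Of 19 measured growth factor and cytokine ligands 1 was called higher (5.26%, against 0.982% of all genes), VEGFA at 0.57 ± 0.09 (adjusted p = 0.000175).

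Of the 90 measured genes of these 4 immediate early and ERK lists, 34 were called higher (37.8%, against 0.982% of all genes) and 1 lower. The 34 include FOS, EGR1 and SPRY4, which were given with the comparison. The lists were chosen with earlier results of these data known, so the share is a description and no independent support. Of the 34, 33 had responses that did not overlap between the lines, as had 144 of all 149 higher calls. These lists thus hold 34 of the 149 higher calls. In EBSS 4445 genes (29.3%) differed between RB1CC1KO and ATG7KO, and in full medium 3249 (21.4%). Of the 34 genes 18 were higher in RB1CC1KO after EBSS and not called in full medium, and 7 were higher after EBSS and lower in full medium. Another 7 were lower in full medium and not called after EBSS, and 2 were higher in both media. Over all 149 higher calls these counts were 77, 23, 23 and 14. The WT response lay between those of the lines for 25 of the 34 genes, against 108 of all 149 higher calls. It was nearer to RB1CC1KO than to ATG7KO for 22 of the 34, against 77 of the 149. In 22 of the 34 the gene rose in both lines, as did 85 of the 149. These counts are given for description and were not tested.

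**Figure D2:**
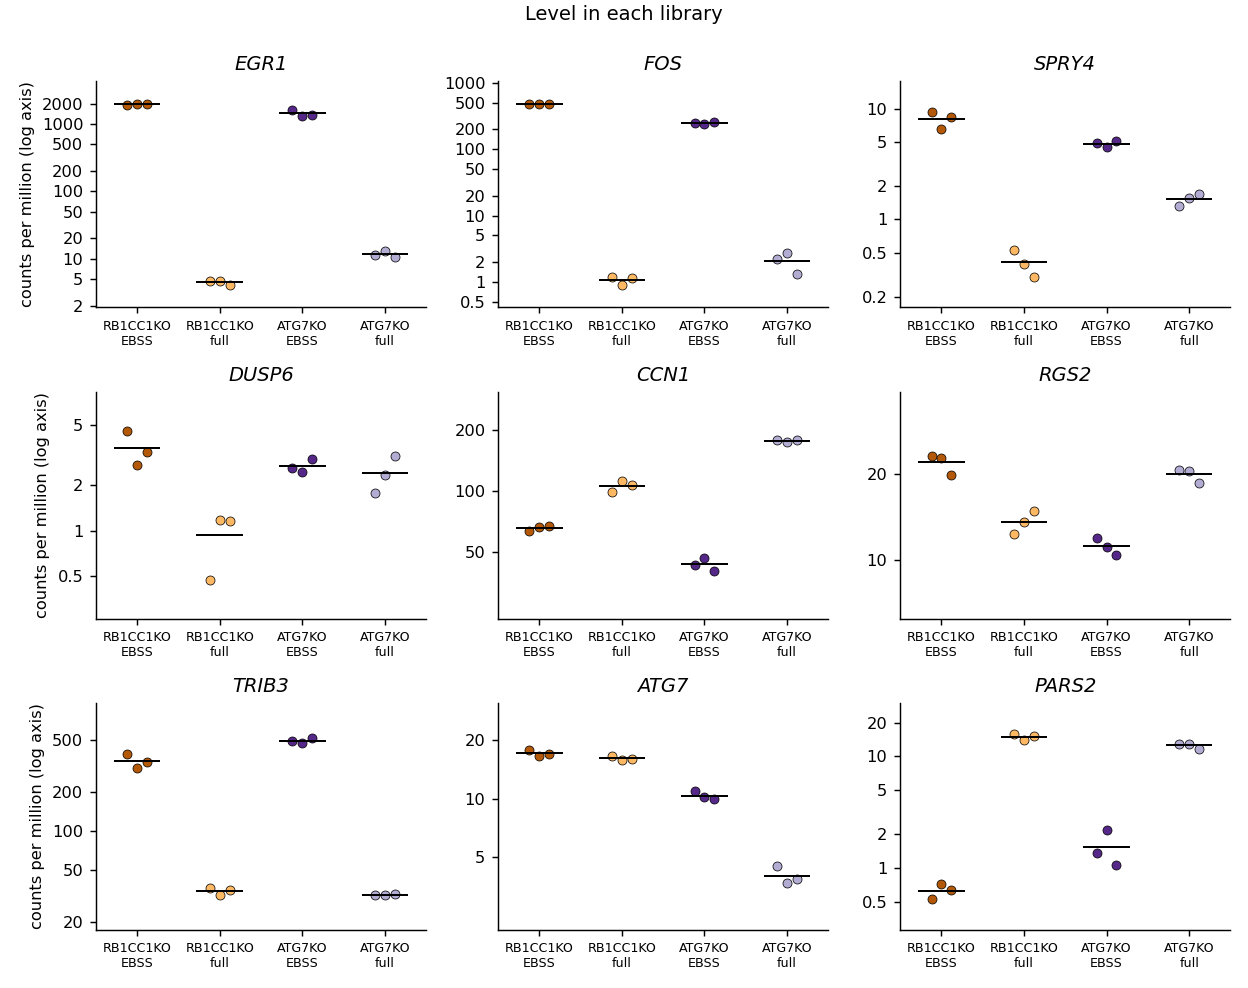
CPM (TMM-scaled, log axis) of 9 genes in each library, with RB1CC1KO in EBSS, RB1CC1KO in full medium, ATG7KO in EBSS and ATG7KO in full medium; points are libraries and bars the mean of 3. EGR1, FOS and SPRY4 are higher after EBSS and lower in full medium in RB1CC1KO than in ATG7KO, while TRIB3 and PARS2 differ in EBSS.

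Among 22 measured targets of YAP and serum response factor, 5 were called higher and 1 lower, and the median was 0.081. These were 22.7% and 4.55% of the list, against 0.982% and 2.3% of all genes. CCN2, a matricellular growth factor, stood at 5.51, 6.10 and 7.95 CPM in starved RB1CC1KO libraries and at 13.2, 12.3 and 12.2 CPM in fed ones, against 4.85, 5.43 and 4.88 CPM in starved ATG7KO libraries and 29.4, 25.7 and 30.4 CPM in fed ones. The fed levels were separate and the starved levels close, so that the fall was smaller in RB1CC1KO (1.52 ± 0.19, adjusted p = 2.65e-06). F3, the tissue factor that starts coagulation (1.33 ± 0.18), AMOTL2, a regulator of YAP (0.63 ± 0.09), and the kinase gene LATS2 (0.43) were called with CCN1 and CCN2. AJUBA was at -0.43 (adjusted p = 0.00537).

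Of 30 measured genes of glycolysis and hypoxia edgeR called 5 higher (16.7%, against 0.982% of all genes) and 0 lower, and DESeq2 6 and 0. At an unadjusted p under 0.05 there were 8 and 1, and the median was 0.096. ADM encodes the vasodilator adrenomedullin (0.94 ± 0.18), PFKFB3 an activator of glycolysis (0.56 ± 0.11) and SLC2A3 a glucose carrier (0.78, or 0.68 and adjusted p = 0.0776 without ATG7KO full medium replicate 3). ANKRD37 was at 1.41 ± 0.31 and lost its call without ATG7KO full medium replicate 2 (1.19, adjusted p = 0.0581), and VEGFA belongs to this list too. VEGFA rose to 416, 391.9 and 399 CPM in starved RB1CC1KO libraries, against 35.9, 31.8 and 33.4 CPM in fed ones. In ATG7KO it stood at 320.3, 294 and 317 CPM in starved and 38.7, 38.8 and 38.4 CPM in fed libraries, so that the starved levels were apart by more than the spread between libraries.

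Other called genes with the largest positive differences included PTGS2, the inducible cyclooxygenase, at 16.6, 13.8 and 13.2 CPM in starved and 0.767, 1.18 and 1.15 CPM in fed RB1CC1KO libraries. In ATG7KO it stood at 3.42, 1.22 and 2.55 CPM in starved and 0.668, 0.973 and 0.873 CPM in fed libraries. The fed levels overlapped and the starved levels did not (2.31 ± 0.45, adjusted p = 0.00184). The starved ATG7KO level rests on 83 reads, and the difference was 2.95 without ATG7KO EBSS replicate 1. THBS1, the matrix protein thrombospondin-1, was at 2.11 ± 0.39, with 1.12 ± 0.44 CPM in starved and 0.708 ± 0.29 CPM in fed RB1CC1KO libraries, against 5.63 ± 0.16 CPM in starved and 14.8 ± 0.93 CPM in fed ATG7KO libraries. HCLS1, a cortactin-related gene of blood cells, was at 1.78 ± 0.30, with 64 and 19 reads in starved and fed RB1CC1KO libraries, against 1611 and 2697 reads in starved and fed ATG7KO libraries. For THBS1 and HCLS1 the RB1CC1KO levels were low in both media, and the response rests on few reads. The co-receptor NRP2 was at 1.59 ± 0.29 and the neuropeptide precursor VGF at 1.52 ± 0.35, a call lost without ATG7KO full medium replicate 3 (1.27, adjusted p = 0.0504).

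ATF4 is the factor of the amino acid response, whose translation rises when uncharged tRNA accumulates. Of 37 measured genes of its programme 34 rose and 2 fell in each line, and 5 differed upwards (13.5%, against 0.982% of all genes) and 1 downwards (2.7%, against 2.3%), with a median difference of 0.007. DDIT4, an inhibitor of mTORC1, stood at 553, 443 and 466 CPM in starved and 5.66, 5.52 and 6.37 CPM in fed RB1CC1KO libraries, against 335, 358 and 377 CPM in starved and 7.51, 8.54 and 8.55 CPM in fed ATG7KO libraries (0.94 ± 0.15, adjusted p = 0.000111). ATF4 itself was at 0.36 ± 0.08, HERPUD1 at 0.40 ± 0.08, the leucine sensor SESN2 at 0.47 ± 0.11 and the secreted STC2 at 0.30, a call lost without any of 8 libraries (adjusted p up to 0.137). TRIB3, a pseudokinase that restrains ATF4, went the other way. It stood at 393, 308 and 342 CPM in starved and 36.1, 32.4 and 35.4 CPM in fed RB1CC1KO libraries, against 494, 474 and 525 CPM in starved and 31.9, 32.3 and 32.6 CPM in fed ATG7KO libraries (-0.62 ± 0.11, adjusted p = 0.000661). The starved libraries of the lines did not overlap for either gene. The uncalled members included PSAT1 (0.15), DDIT3 (-0.19) and SLC7A11 (0.20).

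Of 20 cytosolic aminoacyl-tRNA synthetase genes edgeR called 0 and DESeq2 1, with 4 higher and 2 lower at an unadjusted p under 0.05 and values from -0.244 to 0.247. Of 25 genes of the unfolded protein response 1 was higher (HERPUD1) and 1 lower, the spliced factor XBP1. Each was 4% of the list, against 0.982% and 2.3% of all genes. XBP1 stood at 308, 293 and 307 CPM in starved and 77.1, 74.8 and 79.5 CPM in fed RB1CC1KO libraries, against 405, 428 and 414 CPM in starved and 76.4, 74.2 and 71.5 CPM in fed ATG7KO libraries. Its starved levels were lower in RB1CC1KO in all 3 libraries (-0.52 ± 0.08, adjusted p = 9.53e-05). Of 19 measured p53 targets 2 were higher (10.5%, against 0.982% of all genes) and 1 lower (5.26%, against 2.3%). CDKN1A, the cell cycle inhibitor p21 that is also counted with the FOXO targets, stood at 135, 133 and 133 CPM in starved and 103, 111 and 101 CPM in fed RB1CC1KO libraries, against 85.7, 112 and 106 CPM in starved and 162, 193 and 159 CPM in fed ATG7KO libraries (1.12 ± 0.11, adjusted p = 8.33e-08).

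FOXO factors are freed when insulin and growth factor signalling stops. Of 23 measured factors and targets 2 were called higher (8.7%, against 0.982% of all genes) and 1 lower (4.35%, against 2.3%), with a median of 0.145. BCL6, a transcriptional repressor, stood at 45.3, 51.2 and 51.7 CPM in starved and 5.48, 5.69 and 5.76 CPM in fed RB1CC1KO libraries, against 45.7, 45.2 and 45.2 CPM in starved and 12.5, 13.9 and 14.8 CPM in fed ATG7KO libraries. The lines overlapped after EBSS and were apart in full medium (1.402 ± 0.14, adjusted p = 4.38e-08). KLF15, a glucocorticoid-induced metabolic factor, was at -1.07 ± 0.17, with 17.5 ± 3.24 CPM in starved and 11.3 ± 1.98 CPM in fed RB1CC1KO libraries, against 39.5 ± 2.74 CPM in starved and 12.3 ± 0.70 CPM in fed ATG7KO libraries. The fed levels of the lines overlapped and the starved levels did not. Starved WT libraries stood at 29.6, 28.4 and 35.9 CPM, between the lines and nearer to ATG7KO.

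Of 37 measured genes of the autophagy machinery 1 was higher and 1 lower (ATG7), 2.7% each against 0.982% and 2.3% of all genes, with a median of -0.093 against -0.03 over all genes. GABARAP, an ATG8 protein, was at 1.37 ± 0.30 (adjusted p = 0.0048) on few reads, 495 and 48 over the starved and fed RB1CC1KO libraries, against 256 and 104 over the starved and fed ATG7KO libraries. MAP1LC3B (0.20) and UVRAG (-0.38, adjusted p = 0.058) did not pass, although UVRAG did without ATG7KO EBSS replicate 3 (-0.43, adjusted p = 0.0389). Of 23 measured autophagy receptors edgeR called 0 higher and 2 lower and DESeq2 0 and 1, with 1 and 5 at an unadjusted p under 0.05. The 2 lower calls were 8.7% of the list, against 2.3% of all genes. The lower genes were RETREG3 (-0.60 ± 0.12, adjusted p = 0.0019) and RETREG2 (-0.37 ± 0.11, adjusted p = 0.0443), relatives of the receptor for endoplasmic reticulum. The call of RETREG2 was lost when any of 11 of the 12 libraries was left out (adjusted p from 0.0665 to 0.272), the 12th being ATG7KO full medium replicate 1.

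Of 45 measured lysosomal proteins and their MiT/TFE and folliculin regulators edgeR called 0 higher and 3 lower and DESeq2 0 and 2, with 0 and 10 at an unadjusted p under 0.05 and a median of -0.103. The 3 lower calls were 6.67% of the list, against 2.3% of all genes. RRAGD, a GTPase that recruits mTORC1, was at -0.45 ± 0.10, the protease TPP1 at -0.41 ± 0.11 and the proton pump subunit ATP6V1C1 at -0.35 ± 0.10. These calls were lost without several single libraries. For RRAGD they were ATG7KO EBSS replicate 2, RB1CC1KO full medium replicate 2 and RB1CC1KO EBSS replicate 1 (adjusted p from 0.0651 to 0.089), while TPP1 lost its call without any of 9 libraries (0.0535 to 0.316) and ATP6V1C1 without any of 8 (0.0829 to 0.294).

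Several programmes of growth held few calls or none. By edgeR 0 of 34 ribosome biogenesis genes, 0 of 50 cytosolic ribosomal proteins (a list without RPL41), 0 of 13 mitochondrially encoded mRNAs, 0 of 25 G2/M genes, 0 of 20 NRF2 targets and 0 of 4 measured arrestins were called. DESeq2 called 1 ribosomal protein and 0 in the other 5 lists. At an unadjusted p under 0.05 there were 3 higher and 3 lower ribosome biogenesis genes, 2 higher ribosomal proteins and 8 lower G2/M genes, and 0 in the other 3 lists. The medians ran from -0.114 for the G2/M genes to 0.091 for the ribosomal proteins. Of 25 G1/S genes 1 was lower (4%, against 2.3% of all genes). It was E2F2 (-0.36 ± 0.09), a call that was lost without any of 8 libraries (adjusted p from 0.0565 to 0.113). Of 18 chaperone genes 1 was higher (5.56%, against 0.982% of all genes), HSPA1A (0.69 ± 0.15), which shares reads with a near-identical copy.

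Markers of other cell types were read as well. Of 9 measured haematopoietic markers 1 was higher (TAL1, 0.98 ± 0.21), and of 12 mesenchymal markers 1 was higher (VIM, 0.33 ± 0.08). These single calls were 11.1% and 8.33% of their lists, against 0.982% of all genes. Of 6 epithelial markers edgeR and DESeq2 called 0 (2 at an unadjusted p under 0.05). The summed level of the haematopoietic list was 129 to 140.4 CPM in starved and 141 to 151 CPM in fed RB1CC1KO libraries, against 103 CPM in starved and 96.2 to 99.2 CPM in fed ATG7KO libraries, with GATA1, HBG1 and MPO at 0 reads in all. The mesenchymal sum, mostly of VIM, was 1550 to 1590 CPM in starved and 832 to 873 CPM in fed RB1CC1KO libraries, against 1860 to 1937 CPM in starved and 1252 to 1292 CPM in fed ATG7KO libraries. The epithelial sum was 89.5 to 99.8 CPM in starved and 76.3 to 87.8 CPM in fed RB1CC1KO libraries, against 64.1 to 71.2 CPM in starved and 70.4 to 72.2 CPM in fed ATG7KO libraries. The part of such differences in the responses was not tested.

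**Figure D3:**
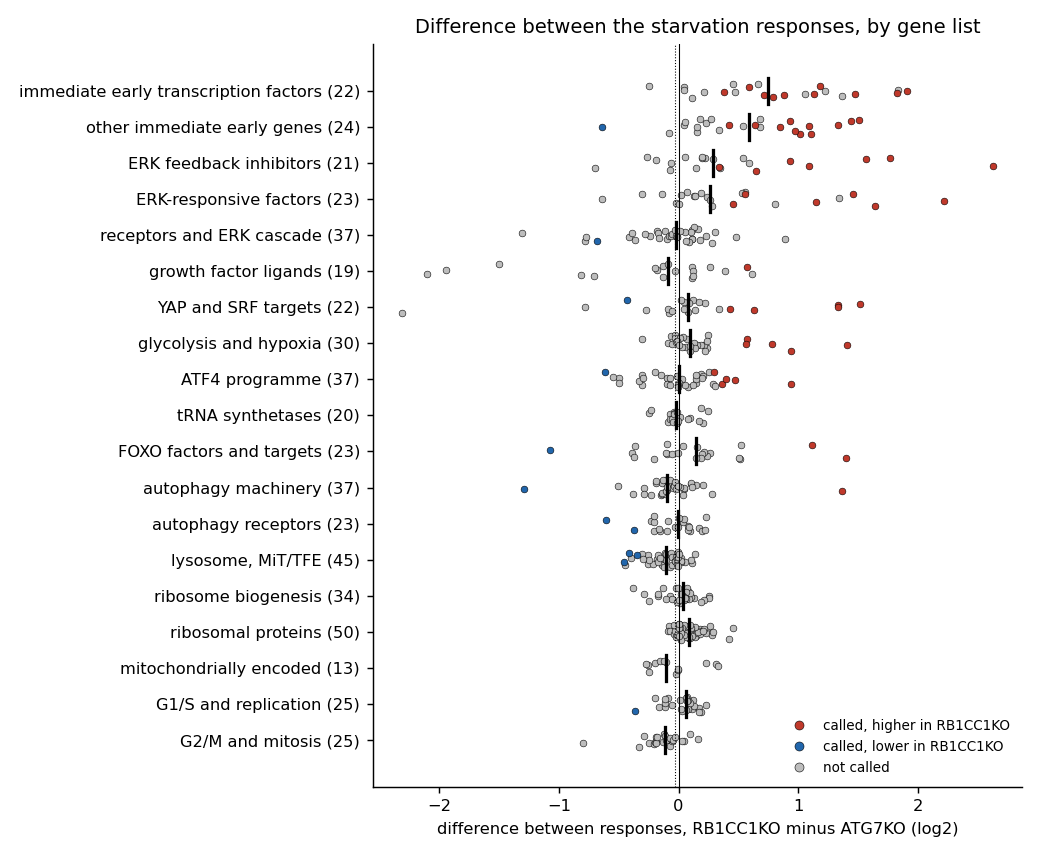
Difference between the responses (log2, RB1CC1KO minus ATG7KO) of each measured gene in 19 lists, with the number measured in brackets, black bars at the median of a list and a dotted line at the median of all genes (-0.03). The immediate early transcription factors have a median of 0.752 and the other immediate early genes one of 0.592, while the receptors and ERK cascade, ATF4 programme, autophagy and ribosome lists centre near 0.

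The genes with lower responses in RB1CC1KO belonged to few of these lists. PARS2, the mitochondrial prolyl-tRNA synthetase, stood at 0.534, 0.720 and 0.633 CPM in starved and 15.7, 13.96 and 15.1 CPM in fed RB1CC1KO libraries, against 1.36, 2.17 and 1.06 CPM in starved and 13.0, 12.9 and 11.54 CPM in fed ATG7KO libraries. The starved RB1CC1KO libraries were all lower (-1.62 ± 0.31, adjusted p = 0.00118), and the call was lost without ATG7KO EBSS replicate 2 (-1.20, adjusted p = 0.0794). HPS6 and BLOC1S3, which build complexes for the biogenesis of lysosome-related organelles, were at -1.25 ± 0.21 and -1.56 ± 0.24. HPS6 stood at 1.36, 1.91 and 2.18 CPM in starved and 23.6, 20.9 and 22.8 CPM in fed RB1CC1KO libraries, against 4.85, 6.45 and 5.94 CPM in starved and 28.4, 29.9 and 30.1 CPM in fed ATG7KO libraries. It has 1 exon, and the lines were apart in both media. MED7, a Mediator subunit (-1.39 ± 0.37), and the zinc finger gene ZNF624 (-1.25 ± 0.35) also fell further in RB1CC1KO, but lost their calls without any of 7 and of 8 libraries (adjusted p up to 0.135 and 0.175). ZNF624 was at -1.20 (adjusted p = 0.0652) in the fit of the 12 knockout libraries alone.

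Developmental transcription factors were among them. HOXD13 stood at 3.14, 3.35 and 4.15 CPM in starved and 11.03, 12.4 and 14.3 CPM in fed RB1CC1KO libraries, against 37.5, 38.1 and 36.5 CPM in starved and 53.3, 48.3 and 56.6 CPM in fed ATG7KO libraries. The RB1CC1KO levels were lower in both media and the fall was larger (-1.35 ± 0.16, adjusted p = 1.18e-06). OLIG2 was at -1.39 ± 0.26, with 1.35 ± 0.22 CPM in starved and 9.01 ± 0.43 CPM in fed RB1CC1KO libraries, against 4.23 ± 0.54 CPM in starved and 10.3 ± 1.28 CPM in fed ATG7KO libraries. FOXF1 was at -2.06 ± 0.58 on 7 reads in starved and 48 in fed RB1CC1KO libraries, and its call was lost without any of 8 libraries (adjusted p up to 0.257). The kinase gene WNK4 rose in both lines, from a low fed level in ATG7KO (22 reads in all), and was at -1.93 ± 0.41. Without ATG7KO full medium replicate 3 it was at -2.68. The adenosine receptor gene ADORA1 (-1.51 ± 0.42) lost its call without any of 8 libraries, and the centrosomal gene CEP19 (-1.32 ± 0.30, adjusted p = 0.00613) kept it in every setting.

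**Figure D4:**
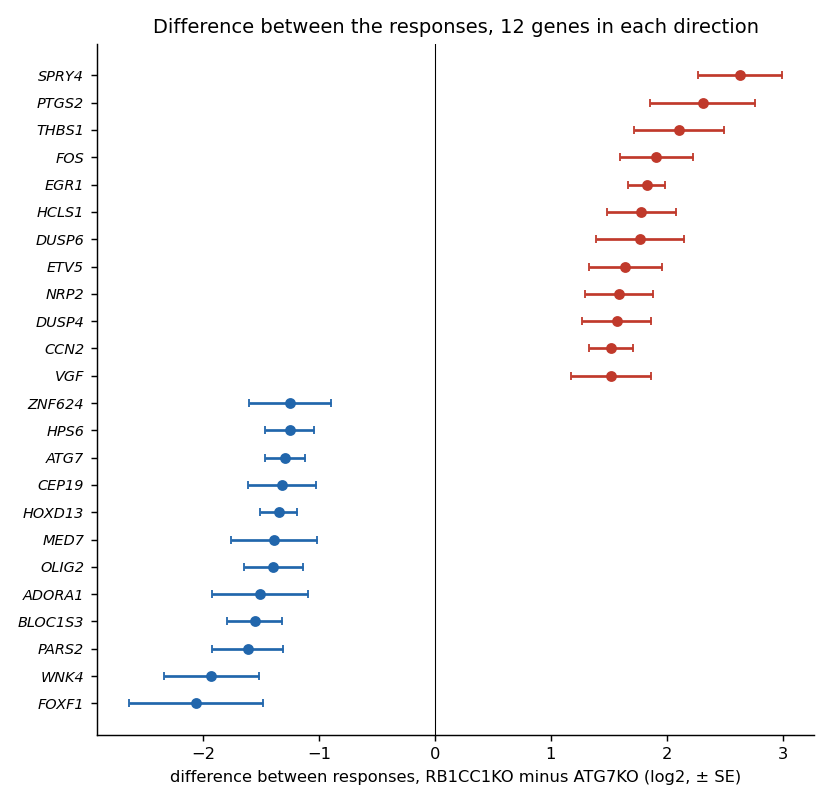
Difference between the responses (log2, RB1CC1KO minus ATG7KO, bars are SE) of the 12 called genes with the largest positive and the 12 with the most negative values, among protein-coding genes whose mean log2 CPM reached 1 and responses that do not overlap. SPRY4 stands highest at 2.63 and FOXF1 lowest at -2.06.

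The lower calls differed from the tested genes in structure. Of the protein-coding genes called lower 8.59% have 1 exon in the GENCODE annotation (28 genes), against 2.08% of those called higher and 1.65% of all tested. The median of the largest exon number of a gene was 6 for the lower calls, 5 for the higher calls and 10 for all tested. Genes named ZNF, mostly zinc finger factors, made up 10.12% of the protein-coding lower calls (33 genes), 1.39% of the protein-coding higher calls and 3.2% of all protein-coding genes tested. The ZNF genes were grouped by symbol after the called genes had been seen, and the group was not tested. The median difference of the 411 ZNF genes tested was -0.204, with a median response of -0.586 in RB1CC1KO and -0.375 in ATG7KO. In 236 of the 349 lower genes the level was lower in RB1CC1KO after EBSS and not called in full medium, in 49 it was higher in full medium and not called after EBSS, and in 38 it was lower in both media. Of the 149 higher genes 77 were higher after EBSS and not called in full medium, 23 were higher after EBSS and lower in full medium, and 23 were lower in full medium and not called after EBSS.

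In 28 called genes the lines moved in opposite directions, with responses of at most 0.77 in size in RB1CC1KO and 0.81 in ATG7KO on the log2 scale. RGS2 stood at 23.1, 22.7 and 19.8 CPM in starved and 12.3, 13.6 and 14.9 CPM in fed RB1CC1KO libraries, against 11.95, 11.1 and 10.4 CPM in starved and 20.6, 20.5 and 18.6 CPM in fed ATG7KO libraries. It rose in RB1CC1KO and fell in ATG7KO, and the WT response was 0.62. FOSL1, a FOS relative, had a response of 0.41 in RB1CC1KO and -0.38 in ATG7KO (difference 0.79 ± 0.16, adjusted p = 0.00368), and RPL41 one of 0.64 and -0.81 (1.45 ± 0.35). RPL41 has near-identical copies and lost its call without any of 10 libraries (adjusted p up to 0.114). In the other direction, the synaptic adhesion gene LRFN5 (-0.996 ± 0.24), the ephrin EFNA4 (-0.95 ± 0.23) and the chromatin reader ING4 (-0.74 ± 0.18) fell in RB1CC1KO and rose in ATG7KO. These calls were lost without ATG7KO EBSS replicate 2 for LRFN5 (-0.87, adjusted p = 0.0791), without ATG7KO EBSS replicate 1 for EFNA4 (-0.85, adjusted p = 0.0615), and without any of 3 libraries for ING4 (adjusted p up to 0.0917).

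The WT line, whose libraries enter neither response, was read beside the called genes. These genes were called for a gap between the knockout lines, which by itself favours a WT response between them. The position of WT was not counted over all genes, so the counts add no support to the calls. For 108 of the 149 higher genes the WT response lay between those of RB1CC1KO and ATG7KO, for 16 it lay beyond RB1CC1KO and for 25 beyond ATG7KO, and it was nearer to RB1CC1KO for 77. For the 349 lower genes it lay between for 169, beyond ATG7KO for 174 and beyond RB1CC1KO for 6, and it was nearer to RB1CC1KO for 52. Grouped by the WT response, the 492 genes that rose over 4-fold in WT had a median difference of 0.099, with 31 called higher and 11 lower. The 1053 genes that rose 2- to 4-fold had one of 0.013, with 45 higher and 24 lower. The 1251 genes that fell 2- to 4-fold had one of -0.146, with 7 higher and 47 lower. The 8239 genes that stayed within 1.4-fold in WT had 36 higher and 149 lower calls, and the 1815 that rose 1.4- to 2-fold had 20 and 40. Higher calls outnumbered lower ones in the 2 groups that rose at least 2-fold. Lower calls outnumbered higher ones in all other groups, as they did over all genes in the fit of all 18 libraries.

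**Figure D5:**
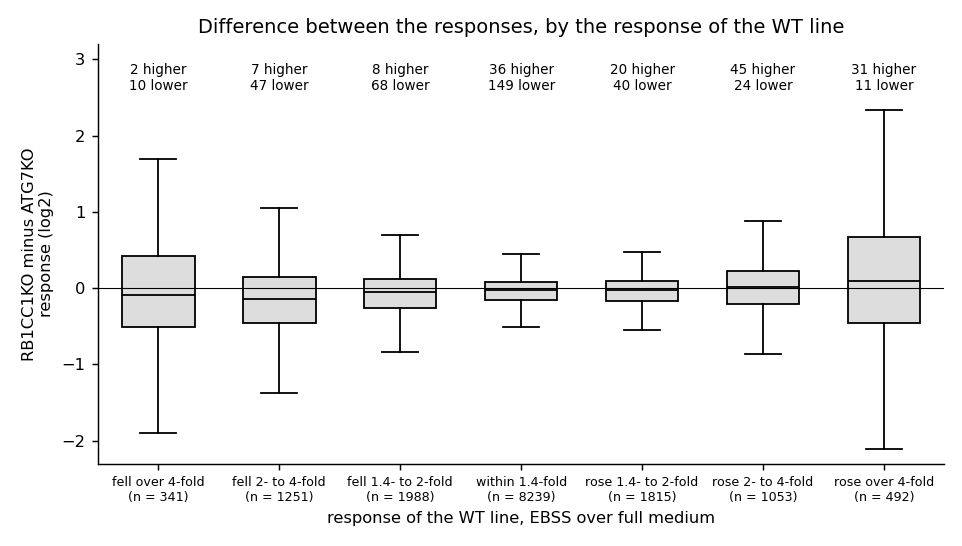
Difference between the responses (log2, RB1CC1KO minus ATG7KO) of the tested genes, grouped by the response of the WT line; boxes span the quartiles with the median, whiskers reach up to 1.5 times the box, and points beyond are not drawn. Genes that rose over 4-fold in WT had 31 higher and 11 lower calls, and genes that fell 2- to 4-fold had 7 and 47.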

How the data were processed

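RNA-seq counts of 18 HAP1 libraries were analysed. Per the labels' protocols, poly(A) RNA was made into libraries with a directional kit and read as 75 bp single ends. For each library the authors deposited read counts, whole numbers for 63677 Ensembl identifiers. Per the submitters' processing notes, GRCh37 (hg19), HTSeq 0.6.1p1, STAR 2.4.2a, DESeq2, edgeR and Picard were used, with no roles given, and the strand setting is not given in the sources used here. Of the 114 genes named, 56 overlap a gene on the other strand, whose reads cannot be told apart with certainty. The 5 summary lines were left out (reads in no gene were 9.39 to 15.1% of uniquely aligned reads in the 12 knockout libraries, ambiguous reads 2.15 to 2.42%). GENCODE 29 (GRCh38) named 52526 identifiers, and was used for names, exon numbers and chromosomes, while promoter sequences are RefSeq's (GRCh38.p14).

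With edgeR 4.0.16 (R 4.3.3) genes were filtered by filterByExpr, library sizes scaled by TMM, and 1 mean per group fitted to all 18 libraries by robust quasi-likelihood, whose common biological coefficient of variation was 6.72%. The test of the difference of responses is an F test, adjusted over all 15179 genes. An SE is the size of the log2 difference divided by the square root of F, and CPM, counts per 1000000 reads, are TMM-scaled, with SD over libraries. The fit was also run on counts simulated from its own means and dispersions. That run checks the procedure only, and its outcome is not given here. DESeq2 1.42.0, other scalings and filters, left-out libraries and a replicate block were alternatives.

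The comparison, the 28 gene lists and the rule for named genes were chosen with earlier results of these data known. Of 715 list entries 714 matched. The rule took the targeted genes, FOS, EGR1 and SPRY4, the 12 largest and 12 most negative called differences among protein-coding genes whose mean log2 CPM reached 1 and responses that do not overlap, up to 3 genes of opposite direction each way, and up to 4 called members of each list. Further list members, and ID, HOX and forkhead genes, were named after their values had been seen, and 1 list and its called member are not reported here.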

Additional observations from a re-analysis of the deposited data

Results flagged for a closer look

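The difference between the responses, RB1CC1KO minus ATG7KO, was itself tested for each gene with edgeR's quasi-likelihood test, and 98 genes named here passed it. The values below are log2 differences. Replicate groups of 3 are too small for a search for outlying libraries.

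Among immediate early transcription factors the differences were 1.91 for FOS, 1.83 for EGR1, 1.47 for EGR3, 1.18 for KLF10, 1.13 for MAFF, 0.88 for FOSL2, 0.79 for FOSL1, 0.72 for NR4A1, 0.59 for JUNB and 0.38 for KLF6. Among the other immediate early genes they were 1.51 for RGS2, 1.44 for ARC, 1.33 for CCN1, 1.11 for PHLDA1, 1.09 for TRIB1, 1.01 for ZFP36, 0.98 for CSRNP1, 0.93 for IER3, 0.85 for IER2, 0.64 for NAB2, 0.42 for MCL1 and -0.64 for BTG2. The ERK feedback genes and ERK-responsive genes gave 2.63 for SPRY4, 2.22 for PHLDA2, 1.77 for DUSP6, 1.64 for ETV5, 1.57 for DUSP4, 1.46 for ETV1, 1.15 for TNFRSF12A, 1.09 for DUSP5, 0.94 for SPRY2, 0.65 for SPRED2, 0.55 for EPHA4, 0.46 for EPHA2 and 0.34 for DUSP16, with the receptor gene ERBB2 at -0.68.

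Targets of YAP and serum response factor gave 1.52 for CCN2, 1.33 for F3, 0.63 for AMOTL2, 0.43 for LATS2 and -0.43 for AJUBA. Genes of glycolysis and hypoxia gave 1.41 for ANKRD37, 0.94 for ADM, 0.78 for SLC2A3, 0.57 for VEGFA and 0.56 for PFKFB3. In the ATF4 programme, the unfolded protein response and the p53 and FOXO lists the values were 1.402 for BCL6, 1.12 for CDKN1A, 0.94 for DDIT4, 0.47 for SESN2, 0.40 for HERPUD1, 0.36 for ATF4, 0.30 for STC2, -0.52 for XBP1, -0.62 for TRIB3 and -1.07 for KLF15. Autophagy and lysosome genes gave 1.37 for GABARAP, -0.35 for ATP6V1C1, -0.37 for RETREG2, -0.41 for TPP1, -0.45 for RRAGD, -0.60 for RETREG3 and -1.29 for ATG7. HSPA1A was at 0.69, E2F2 at -0.36, TAL1 at 0.98 and VIM at 0.33.

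Of the genes outside these lists PTGS2 was at 2.31, THBS1 at 2.11, HCLS1 at 1.78, NRP2 at 1.59, VGF at 1.52 and RPL41 at 1.45. ID1 and ID2 were both at 1.23 and ID3 at 1.19. On the lower side FOXF1 was at -2.06, WNK4 at -1.93, FOXD2 at -1.69, PARS2 at -1.62, BLOC1S3 at -1.56, ADORA1 at -1.51, OLIG2 at -1.39, MED7 at -1.39, HOXD13 at -1.35, CEP19 at -1.32, HPS6 at -1.25, ZNF624 at -1.25 and HOXC8 at -1.23. LRFN5 was at -0.996, EFNA4 at -0.95, FOXD3 at -0.84, HOXB9 at -0.83, HOXC11 at -0.81, ING4 at -0.74, HOXA7 at -0.64, FOXF2 at -0.57 and HOXA13 at -0.46.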

How the results depend on the processing

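In a fit of the 12 knockout libraries alone the genes called lower numbered 220, against 349 in the fit of all 18, and the cause was not tested. With 1 library left out, the calls ranged from 295 to 468 in all, from 121 to 198 higher and from 148 to 302 lower, with fewer samples in each fit. The other settings gave 494 calls with DESeq2 (190 higher, 304 lower), 454 with upper-quartile scaling, 510 without a filter on low counts, 455 with at least 1 CPM in 3 libraries, and 409 without both the shallowest and the deepest library, a setting chosen after seeing the data. The calls of the single-line responses stayed between 9323 and 10242 genes in RB1CC1KO and between 8729 and 9990 in ATG7KO, but upper-quartile scaling split them into 3794 higher and 6448 lower in RB1CC1KO (4835 and 5051 with TMM) and 3719 and 6271 in ATG7KO (4902 and 4652 with TMM). Replicate numbers are shared by the groups, and a replicate block within each line gave 555 calls (172 higher, 383 lower). Whether the numbers pair the samples cannot be decided with 3 libraries in a group. The deviations of same-numbered EBSS and full-medium libraries correlated at 0.099, 0.421 and -0.024 in RB1CC1KO and at 0.034, -0.104 and 0.109 in ATG7KO. Those of differently numbered libraries ran from -0.307 to 0.221 in RB1CC1KO and from -0.216 to 0.21 in ATG7KO. Of the genes named, 222 of their values under the settings lost the call, 15 gained it and 1 reversed, that of the uncalled MYC (-0.0295 to 0.148 with 1 library left out, lowest without ATG7KO full medium replicate 3). In the fit of the 12 knockout libraries alone the calls of ZNF624, EGR3, RETREG2, TPP1, ATP6V1C1, FOXF2 and FOXD3 were lost, and under the block those of ZNF624, EGR3 and FOXD2. The called immediate early transcription factors numbered 7 to 11 and the ERK feedback genes 5 to 8 over all settings. Depth limits low genes most, since fed RB1CC1KO levels of SPRY4 and FOS rest on 21 and 55 reads.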

Other observations

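The ID genes, whose products block basic helix-loop-helix factors and which BMP signalling induces, differed together. All 3 measured members were called higher, and they were picked after their values had been seen. ID1 averaged 12.9 ± 1.00 CPM in starved and 42.8 ± 3.79 CPM in fed RB1CC1KO libraries, against 7.09 ± 0.55 CPM in starved and 55.7 ± 4.10 CPM in fed ATG7KO libraries (SD, n = 3 each). It fell in both lines, less in RB1CC1KO (difference 1.23 ± 0.15, adjusted p = 1.7e-06 by edgeR's quasi-likelihood test). ID3 averaged 18.7 ± 3.47 CPM in starved and 77.8 ± 8.52 CPM in fed RB1CC1KO libraries, against 11.9 ± 3.05 CPM in starved and 107.7 ± 10.9 CPM in fed ATG7KO libraries (1.19 ± 0.20). ID2 had a response of 0.12 in RB1CC1KO and -1.10 in ATG7KO (1.23 ± 0.17).

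Homeobox genes of the HOX clusters, which set position along the body axis, were also grouped by symbol after their values had been seen, and the group was not tested. Of 26 measured HOX genes 6 were called lower (23.1%, against 2.3% of all tested genes), 19 of the 26 values were below 0 and the median difference was -0.232. HOXA7 averaged 33.8 ± 1.94 CPM in starved and 50.9 ± 2.24 CPM in fed RB1CC1KO libraries, against 50.6 ± 3.24 CPM in starved and 49.4 ± 5.63 CPM in fed ATG7KO libraries, so that the fed levels overlapped and the starved ones did not (-0.64 ± 0.12, adjusted p = 0.000661). HOXC8 was at -1.23, HOXB9 at -0.83, HOXC11 at -0.81 and HOXA13 at -0.46 besides HOXD13. HOXC11 lost its call without any of 11 libraries (adjusted p up to 0.151), HOXA13 without ATG7KO EBSS replicate 2 or RB1CC1KO full medium replicate 2 (0.0503 to 0.0533), HOXB9 without RB1CC1KO full medium replicate 3 (-0.67, adjusted p = 0.0504) and HOXC8 without ATG7KO EBSS replicate 1 (-0.98, adjusted p = 0.0506). Of 30 measured forkhead genes 4 were called lower (FOXF1, FOXD2, FOXD3 and FOXF2; 13.3%, against 2.3% of all tested genes), with a family median of -0.05 against -0.03 over all genes, and each of these calls was lost without any of at least 7 libraries.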
